A study of Drosophila melanogaster with 3 samples.

Results

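The regions described here are 649 peaks that tagged CG5180 protein gave in the introns of long genes of the Drosophila embryo. Of the 5400 peaks that the authors kept by the irreproducible discovery rate (IDR), which selects peaks by how well their ranks repeat between lists, these are the peaks whose summit lies over 250 bp from every transcription start site (TSS) of a protein-coding gene, in no annotated exon, and inside a protein-coding gene of 50 kb or longer. They are called members below, and the longest protein-coding gene over a summit is its host. Members made up 12.02% of the IDR list (Wilson 95% interval 11.2 to 12.9). The other IDR peaks were 1676 promoter peaks, 1648 intronic peaks in shorter hosts, 1040 intergenic peaks and 387 exonic peaks. The rule used positions and host length only, so signal, replicate values and sequence were free to vary.

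Anti-GFP chromatin immunoprecipitation and sequencing (ChIP-seq) was done on whole embryos of both sexes, 0 to 16 h old, of a transgenic line expressing a CG5180-eGFP fusion protein. Chromatin was sonicated to a stated 200 to 800 bp. There were 3 biological replicates, all of this 1 genotype and age, and no library from another GFP line or without the tag was analysed here. Whole embryos pool all tissues and stages of that window, so a peak cannot be placed in a cell type, and enrichment common to GFP pulldowns cannot be told apart from that of CG5180.

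CG5180 is a Drosophila gene known by its annotation number, and it is itself short, at 1831 bp on chromosome arm 3R (20557930 to 20559760). Introns of long genes in Drosophila are known to hold enhancers, DNA elements at which transcription factors control when and where a gene is transcribed in the embryo. Developmental regulators and neuronal receptors and channels are 2 of the classes of gene that have such long introns. In ChIP-seq, a peak far from a start site can mark direct DNA binding, contact with a distant promoter or signal from open chromatin, and a peak list does not separate these.

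The sequences under the strongest members carried short words that were frequent in other strong CG5180 peaks. Shown here, to let these words be seen in place, are the strongest members of Smr, kek5, Ptp61F, ab, Cph and Tlk, as the bases within 100 bp of the summit, plus strand, genome release 6 (dm6), read from RefSeq. Capitals mark any match, on either strand, to 10 7-base words taken from strong IDR peaks that are not members and described further below. Members of pk, ths and mam that rank among these are not shown. Each window shown holds a word, whereas 25 of the 39 members in the strongest 540 IDR peaks did.
Smr, chrX:12716024-12716224: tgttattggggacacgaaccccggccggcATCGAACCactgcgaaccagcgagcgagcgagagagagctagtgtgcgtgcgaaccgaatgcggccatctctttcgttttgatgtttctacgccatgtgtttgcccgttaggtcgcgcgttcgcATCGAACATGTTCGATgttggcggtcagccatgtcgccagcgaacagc
kek5, chrX:19361373-19361573: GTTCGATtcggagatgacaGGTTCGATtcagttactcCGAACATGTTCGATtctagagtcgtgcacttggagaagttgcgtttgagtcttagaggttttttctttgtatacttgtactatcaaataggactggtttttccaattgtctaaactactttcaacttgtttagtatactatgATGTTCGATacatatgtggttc
Ptp61F, chr3L:1366989-1367189: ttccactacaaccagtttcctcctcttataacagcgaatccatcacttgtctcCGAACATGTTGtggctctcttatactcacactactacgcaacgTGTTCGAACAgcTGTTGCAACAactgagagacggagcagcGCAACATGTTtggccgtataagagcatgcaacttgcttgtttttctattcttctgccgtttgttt
ab, chr2L:11221421-11221621: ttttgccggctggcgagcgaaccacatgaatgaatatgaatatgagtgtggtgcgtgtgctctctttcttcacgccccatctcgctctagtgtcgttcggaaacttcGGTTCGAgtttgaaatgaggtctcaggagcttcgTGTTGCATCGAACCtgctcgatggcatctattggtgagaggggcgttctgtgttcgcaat
Cph, chrX:7194881-7195081: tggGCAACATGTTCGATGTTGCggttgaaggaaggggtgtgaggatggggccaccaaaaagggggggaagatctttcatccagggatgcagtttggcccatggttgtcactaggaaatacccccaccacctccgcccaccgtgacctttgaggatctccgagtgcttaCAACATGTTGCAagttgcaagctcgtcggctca
Tlk, chrX:3744861-3745061: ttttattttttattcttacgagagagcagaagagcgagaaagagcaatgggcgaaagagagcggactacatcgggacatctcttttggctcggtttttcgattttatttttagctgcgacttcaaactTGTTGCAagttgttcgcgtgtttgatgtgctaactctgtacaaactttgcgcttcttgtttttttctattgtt
The Cph, Ptp61F, kek5 and Smr windows held 14, 14, 12 and 10 matches, counting overlapping ones. In ab there were 4 matches, and in Tlk 1.

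A pair of members is shown for a different word, CACAGTG or its reverse complement CACTGTG, in capitals. They lie in Fur1 and prage, and were chosen after values were seen.
Fur1, chr3R:25446030-25446230: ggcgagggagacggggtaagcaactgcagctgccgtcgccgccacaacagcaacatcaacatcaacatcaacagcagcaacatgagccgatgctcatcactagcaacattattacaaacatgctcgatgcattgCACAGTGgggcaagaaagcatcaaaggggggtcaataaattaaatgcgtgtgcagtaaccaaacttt
prage, chrX:1830703-1830903: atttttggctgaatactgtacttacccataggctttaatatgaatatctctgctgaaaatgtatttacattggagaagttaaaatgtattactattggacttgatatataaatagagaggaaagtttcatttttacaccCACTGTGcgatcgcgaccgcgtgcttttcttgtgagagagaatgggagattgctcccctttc
The word lay within 100 bp of the summit in a member of Fur1, which encodes a furin-type protease, with a signal value of 4035, and in one of prage, with 744.

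The strongest member lay in an intron of Smr, which encodes the nuclear receptor corepressor SMRTER. It had a signal value of 44509, a score of the authors' peak caller that ranks peaks within a list, and was the fourth strongest of all IDR peaks. Its rank was 3 in replicate 1, 4 in replicate 2 and 4 in replicate 3. The summit lay 26.5 kb from the 5' end of the 58.4 kb gene, in its second intron, with the closest TSS, of CG15725, 10270 bp away. The next strongest, in the first intron of kek5, a transmembrane protein with leucine-rich repeats and an immunoglobulin domain, had a signal value of 19091 and ranks of 35, 35 and 34 in replicates 1 to 3. A member in pk, the planar cell polarity gene prickle, followed with a signal value of 17933 and replicate ranks of 40, 48 and 44. Its summit was 261 bp from a TSS of pk and so only just outside the promoter window.

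Ptp61F, a tyrosine phosphatase, held one with a signal value of 15859.8, in an intron of 126 kb, where the nearest TSS was that of ru at 3539 bp. Its replicate ranks were 52, 65 and 59. The zinc finger transcription factor gene ab held one of 12518, 9724 bp from its own nearest TSS, with replicate ranks of 77, 85 and 82. In ths, an FGF ligand gene, a member of 11390 ranked 89, 94 and 86 in the replicates. Cph, a zinc finger gene, had one of 11116 with replicate ranks of 88, 92 and 94. Each of these members was thus among the 100 strongest peaks of every replicate.

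The rest of the 20 strongest members were also in every replicate, all with ranks of 251 or better. Signal values were 8893 in mam, the Notch coactivator mastermind, 7906 and 6868 in Tlk, a kinase of the Tousled family, and 6860 and 5159 in kirre, an immunoglobulin receptor of myoblast fusion. Eip75B, an ecdysone-induced nuclear receptor, had 6571, bbg 4467, the GATA cofactor gene ush 4213 and Fur1 4035. The Fur1 summit stood 26928 bp, and these kirre summits 36966 and 38806 bp, from the nearest TSS of any protein-coding gene. The last 4 were second members of Cph, mam and Ptp61F and a further one of Tlk. That Tlk summit shares its peak interval with a stronger one, so replicate ranks cannot be assigned to each.

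Most members were of modest strength. Their signal values ran from 182 to 44509 with a median of 299 and quartiles of 226 and 434. Intronic IDR peaks in shorter hosts had a median of 301 and quartiles of 223 and 494. In the strongest 540 peaks of the IDR list were 39 of 649 members (6.01%, Wilson interval 4.43 to 8.11) and 88 of 1648 shorter-host intronic peaks (5.34%, 4.35 to 6.53), giving an odds ratio by two-sided Fisher's exact test of 1.13 (p = 0.543, Benjamini-Hochberg (BH) p = 0.652 over 6 such tests). That comparison depended on the peak set. The cutoff was the strongest 10% of the IDR peaks in use. It was thus below 540 for the stronger part, without overlapping peaks and without a replicate. With only the strongest of overlapping peaks kept the odds ratio was 0.990 (Fisher's exact p = 1.00). With only the strongest peak of each host the odds ratio was 1.75 (Fisher's exact p = 0.0314), in the stronger part of the IDR list it was 2.29 (p = 0.00564), and without replicate 1 it was 1.60 (p = 0.0404).

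Recovery by the replicates differed between members and shorter-host intronic peaks by less than the spread between replicates. Among its own 5400 strongest peaks, replicate 1 had a summit within 200 bp of 88.6% of members, replicate 2 of 83.8% and replicate 3 of 84.4%, a mean of 85.6% ± 2.60 (SD, n = 3). For shorter-host intronic peaks the values were 87.3%, 86.2% and 81.6%, a mean of 85.01% ± 3.04 (SD, n = 3). The mean difference of 0.607 percentage points was smaller than its SD of 2.72 over the replicates (exact permutation test of sign changes, two-sided, p = 0.750, where 3 replicates cannot give less than 0.25). All 3 replicates held 442 members (68.1%) and 1101 of the shorter-host peaks (66.8%). Because the IDR selection itself drew on replicate lists, high recovery was built in for both classes. By its own strongest peaks, replicate 1 gave 676 intronic peaks in long hosts, replicate 2 gave 644 and replicate 3 gave 634 (651 ± 21.9, SD, n = 3).

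Members were unevenly spread over the long genes. Of 307 protein-coding genes of 50 kb or longer, 174 held a member, which is the background share of 56.7% for every list of long genes below. A single member was found in 60 hosts, 2 to 4 in 67, 5 to 9 in 33 and 10 or more in 14. The 20 hosts with the most held 231 members, or 35.6%. A peak of the strongest 5400 lay in all 3 replicates in 152 of the 174 hosts, and 121 of the 133 genes without a member had none in any replicate. Of these 133, 6 lie wholly inside a longer gene, which takes their peaks by the rule. Genes with and without a member were of like length, with medians of 75.5 and 72.6 kb.

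Tlk, kirre and CG1677 had the most, 17 members each. Tlk had 17 intronic peaks in each replicate as well. In kirre the replicates gave 21, 12 and 17, and in CG1677 15, 17 and 15. The Tlk members stood close together, with 10 summits in a run of 6.14 kb in its second intron (X, 3739027 to 3745163), of which 6 belong to a single peak interval, while those of kirre were spread from 2.92 to 357 kb into a gene of 394 kb. The 649 members come from 635 intervals, some of which overlap, and cover 604 separate regions. All CG1677 members lay from 67.03 to 114 kb into that gene, and no IDR peak lay at a TSS of its own. Its own TSSs lie at 0, 119.6 and 120.9 kb. Each of the 17 CG1677 members lay nearer to a TSS of another gene than to one of its own. These distances ran from 272 bp, for the strongest member at 68.7 kb, to 8203 bp.

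**Figure D1:**
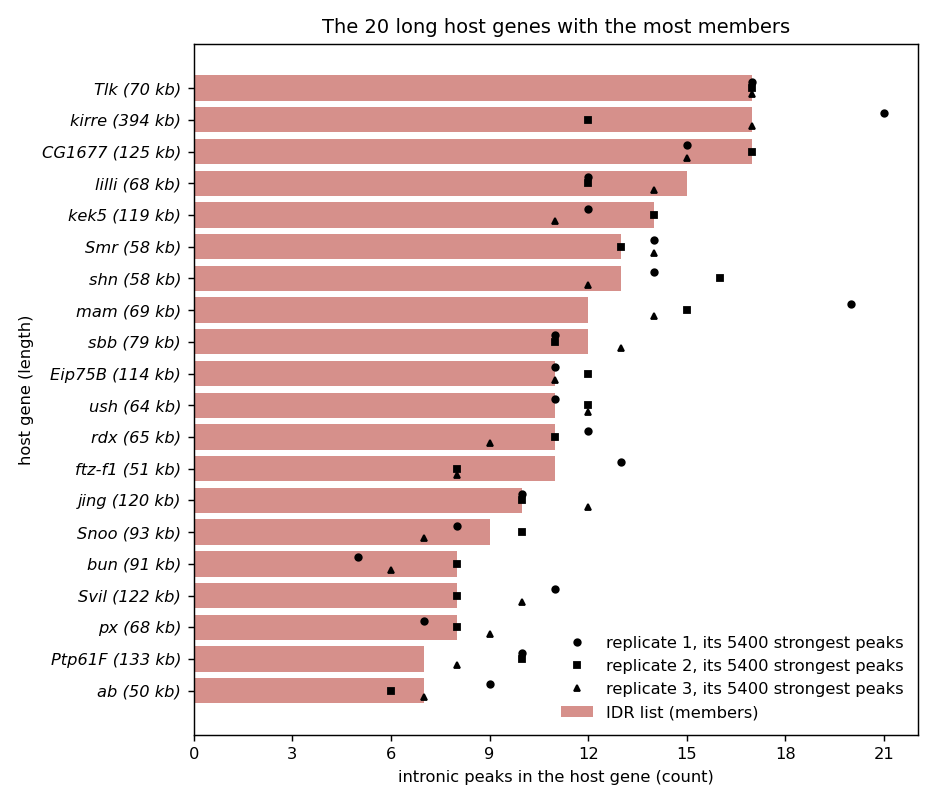
The number of intronic peaks (x axis, count) in each of the 20 long host genes with the most members (y axis, gene and length in kb). Bars give the IDR list and black symbols the strongest 5400 peaks of each of the 3 replicates; Tlk has 17 by every list, and the widest spread is in kirre, with 21, 12 and 17 in the replicates.

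lilli, of the AFF family of elongation factors, held 15 members (12, 12 and 14 in the replicates), kek5 held 14 (12, 14 and 11) and Smr 13 (14, 13 and 14). shn, a zinc finger protein of Dpp signalling, also had 13 (14, 16 and 12). mam had 12, with 20, 15 and 14 in the replicates, and sbb, a nuclear protein also called brakeless, 12 (11, 11 and 13). Eip75B, ush, rdx, which encodes an adaptor that targets the Hedgehog effector Ci, and the nuclear receptor gene ftz-f1 had 11 each, and jing, a zinc finger gene, 10. For ftz-f1 replicate 1 gave 13 and replicates 2 and 3 gave 8 each. Snoo, a Smad corepressor, had 9, bun, px and the actin-binding protein gene Svil 8 each, and Ptp61F and ab 7 each.

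The maps of hosts show where members lay. In Smr all 13 members fell in the first 26.5 kb, with the strongest the farthest from the 5' end. In kek5 the members ran from 1.80 to 67.3 kb into the gene. Those of lilli ran from 1.02 to 44.8 kb, with a median signal value of 259 against a strongest of 1524.

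**Figure D2:**
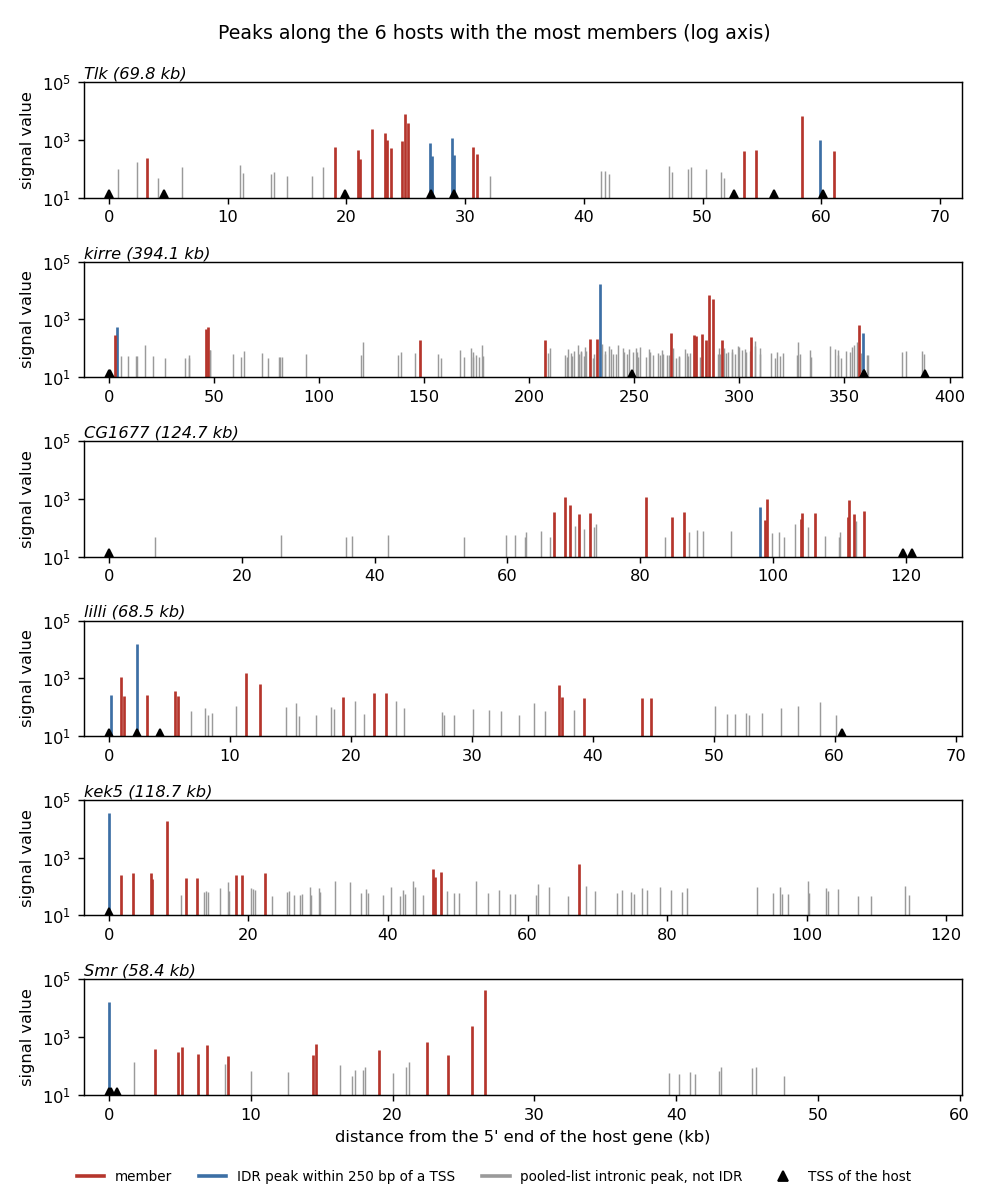
Peaks along the 6 host genes with the most members, by distance from the 5' end of the gene (x axis, kb) and the authors' signal value (y axis, log scale). Red lines are members, blue lines IDR peaks within 250 bp of any protein-coding TSS, grey lines pooled-list intronic peaks that overlap no IDR peak, and triangles the host's own TSSs; 10 of the 17 members of Tlk crowd into 1 run, and those of Smr end 26.5 kb into the gene.

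Among the gene lists, member density was highest in the Notch, Wnt, Hedgehog and BMP list and lowest in the ion channel, dpr and DIP, and G protein-coupled receptor lists. Density is given per Mb of eligible sequence, that is, host sequence outside exons and TSS windows, and over all long genes it was 27.8 members per Mb. All 6 long genes of the Notch, Wnt, Hedgehog and BMP list held a member, 43 in all or 118 per Mb, led by shn, mam, fz, a Wnt receptor with 7, and tkv, a BMP receptor with 5. The replicates gave 58, 48 and 44 peaks in these genes. Of 9 long ecdysone and nuclear receptor genes 7 held a member, with 43 members or 91.0 per Mb (replicates 45, 41 and 39). After Eip75B and ftz-f1 came Hr4 and EcR, the ecdysone receptor, with 5 each, and Eip93F and br held none, br being wholly inside the longer gene Mur2B, which leaves it no sequence of its own here.

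Of 7 long genes in receptor tyrosine kinase, EGF and FGF signalling 6 held a member, with 36 members or 80.8 per Mb (replicates 39, 37 and 32). Among them kek5 was followed by Ptp61F and the Ets factor gene pnt with 7 each and ths with 3. All 5 long genes listed as corepressors and chromatin regulators held one, 28 members or 71.6 per Mb (replicates 27, 27 and 32). These were Smr, jing, psq, a BTB-domain gene with 3, and toc and Rbp6 with 1 each. Both toc and Rbp6, an RNA-binding protein gene, fit that list poorly. They hold 55.8 and 154 kb of its 0.391 Mb of eligible sequence. Of 18 long developmental transcription factor genes 15 held one, 68 members or 58.6 per Mb (replicates 76, 66 and 70), led by ush, jing, ab and pnt. The Hox gene Ubx and twi, a mesoderm determinant, had none in the IDR list or in any replicate. Lists overlap where a gene has several roles, as jing and pnt do.

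Several lists lay below the density of all long genes. Of 9 long genes for signalling kinases, phosphatases and cAMP 6 held one, 17 members or 24.2 per Mb, of which the phosphodiesterase gene dnc had 6. RNA-binding protein genes had members in 12 of 14, but only 25 in all or 16.0 per Mb, among them cpo, pum and shep with 4 each. Of 23 long axon guidance genes 13 held one, close to the background share, with 40 members or 20.6 per Mb, of which kirre had 17 and Ten-a and mgl 4 each.

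Few members lay in long genes for ion channels, Dpr and DIP receptors and G protein-coupled receptors. Of 15 long ion channel genes 2 held a member (13.3%, Wilson interval 3.74 to 37.9), Elk and Sh, both potassium channels, with 1 each or 2.39 per Mb, and the replicates gave 1, 3 and 1 peaks. Of 9 long dpr and DIP genes, immunoglobulin receptors of synaptic partner choice, 1 held members, DIP-alpha with 2, and each replicate gave 2. In that list DIP-lambda and dpr21 held no pooled-list peak. They took up 348 and 123 kb of its 0.969 Mb of eligible sequence, which lowers its densities. None of 5 long G protein-coupled receptor genes held one, which allows up to 12.5 per Mb, and no replicate gave any. Synapse and vesicle genes had members in 3 of 7 (Wilson interval 15.8% to 74.95%), at 10.9 per Mb, and cell adhesion and extracellular matrix genes in 8 of 18 (24.6% to 66.3%), at 13.1 per Mb, with Dys, the dystrophin gene, at 5. No list was tested as a set, and the counts stand beside the background share of long genes.

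Pooled-list peaks varied between the lists too. Per Mb of the same sequence, the pooled list of 30000 peaks held 698 intronic peaks in the Notch, Wnt, Hedgehog and BMP genes, 438 in the ecdysone and nuclear receptor genes, 102 in ion channel genes and 40.2 in dpr and DIP genes. The last value takes in DIP-lambda and dpr21, which held none. Members were 11.7% of the pooled intronic peaks of all long hosts. They were 20.8% in the ecdysone and nuclear receptor genes, 16.9% in the Notch, Wnt, Hedgehog and BMP genes, 12.1% in the receptor tyrosine kinase, EGF and FGF genes, 9.19% in the signalling kinase list, 5.13% in dpr and DIP genes and 2.35% in channel genes. Transcription of these genes was not measured here, so its part in the pattern was not tested.

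**Figure D3:**
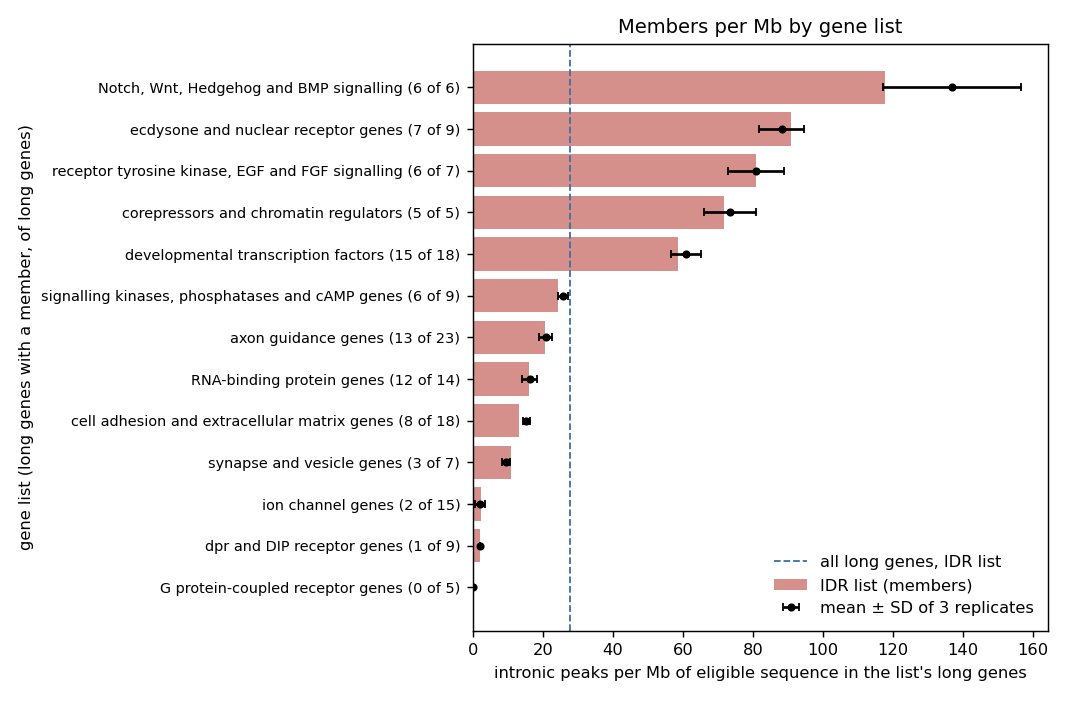
Intronic peaks per Mb of eligible sequence (x axis) in the long genes of each gene list reported here (y axis, with the number of long genes that hold a member). Bars give the IDR list, points the mean and SD of the 3 replicates and the dashed line all long genes (27.8 per Mb); the top 5 lists lie from 58.6 to 118 per Mb, and channel, dpr and DIP, and G protein-coupled receptor lists at 0 to 2.39 per Mb.

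Long genes with a member more often had an IDR peak at a TSS of their own. This held for 92 of 174 long genes with a member (52.9%, Wilson interval 45.5 to 60.1) and 24 of 133 without one (18.0%, 12.4 to 25.4), giving an odds ratio by two-sided Fisher's exact test of 5.10 (p = 3.71e-10, BH p = 1.11e-09 over 6 tests). Of the 20 hosts with the most members, CG1677, rdx, jing and Ptp61F were those without such a peak. Without the 6 genes inside a longer one, the shares were 52.9% and 18.1%, an alternative added after the data were seen. Ubx had a peak at its own TSS and no member. Pooled-list intronic peaks also differed, at 399 per Mb in long genes with a member and 64.8 in those without. The part of this difference in the result was not tested. Genes are not replicates, and the comparison of TSS peaks is within 1 peak list.

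Introns of long hosts held fewer peaks per Mb than introns of shorter hosts. In the replicates, long hosts had 29.0, 27.6 and 27.2 intronic peaks per Mb (27.9 ± 0.941, SD, n = 3) over 23.3 Mb, and shorter hosts 60.9, 59.4 and 58.1 (59.5 ± 1.38) over 27.2 Mb. The ranges of the replicates did not overlap. Counting only bases that RefSeq does not mark as repeats, the IDR list gave 35.9 members per Mb in long hosts and 73.6 peaks per Mb in shorter ones. A peak of the pooled list was also less often an IDR peak in long hosts, for 649 of 5567 (11.7%, Wilson interval 10.8 to 12.5) against 1648 of 9005 in shorter hosts (18.3%, 17.5 to 19.1), giving an odds ratio by two-sided Fisher's exact test of 0.589 (p = 1.67e-27, BH p = 1.00e-26).

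The gap in density varied with distance to a start site. Within 250 to 1000 bp of a TSS, long hosts had 80.4 members per Mb and shorter hosts 102 peaks per Mb. At 2 to 5 kb the densities were 42.4 in long and 54.8 in shorter hosts, and at 5 to 10 kb they were 28.6 and 44.9. At 10 to 20 kb the replicates gave 29.3 ± 2.05 per Mb in long hosts and 26.8 ± 1.12 in shorter ones (SD, n = 3). Beyond 20 kb long hosts had 9.65 members per Mb over 8.81 Mb, and shorter hosts 16.3 over 0.676 Mb with only 11 peaks. Among genes over 120 kb, those with at most 1 pooled intronic peak took up 4.78 Mb of all long-host sequence. How much of that lies beyond 20 kb was not measured, so its part in the difference there was not tested.

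**Figure D4:**
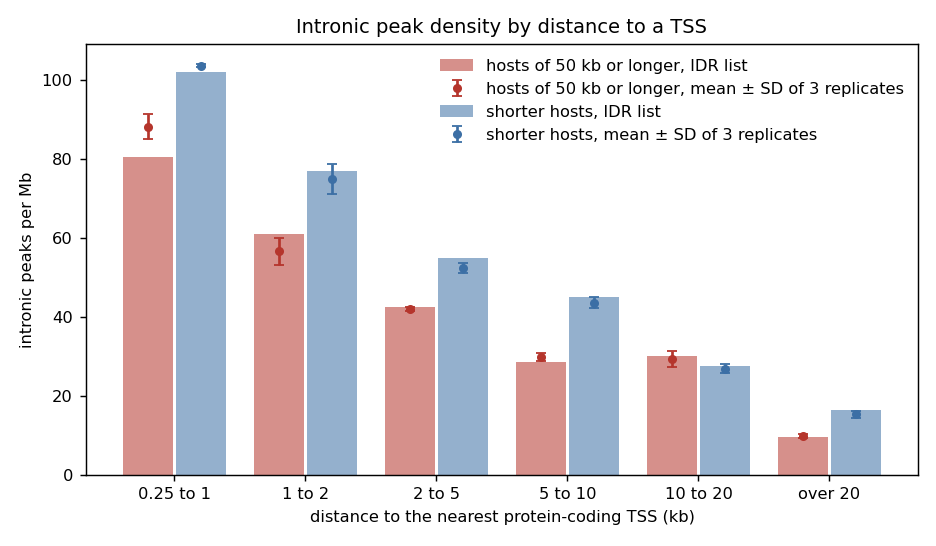
Intronic peaks per Mb (y axis) by distance to the nearest protein-coding TSS (x axis, kb), in hosts of 50 kb or longer (red, left) and shorter hosts (blue, right). Bars give the IDR list and points the mean and SD of the 3 replicates; density is highest next to a TSS and lowest beyond 20 kb in both, and long hosts are below shorter ones except at 10 to 20 kb.

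The longest hosts were the sparsest. Members stood at 45.1 per Mb in hosts of 50 to 60 kb, 39.2 in those of 60 to 80 kb, 34.7 in those of 80 to 120 kb and 12.7 in longer ones (replicates 46.8 ± 2.61, 39.4 ± 1.28, 33.5 ± 0.272 and 12.9 ± 0.888, SD, n = 3). The share of genes with a member did not follow this order, at 54.5%, 55.7%, 62.3% and 53.6%. Myo81F, the longest gene of all at 1966 kb, held no member and 1 pooled peak, and Pzl, at 709 kb, held none of either. These were named after their values were seen. Among hosts over 120 kb, 17 genes with at most 1 pooled intronic peak took up 4.78 Mb, and without them the density was 24.9 members per Mb. Without such genes the 3 shorter classes stood at 47.8, 42.7 and 35.7 per Mb. At the limit of 50 kb, Sytbeta, ab and pHCl-1, just longer, held 1, 7 and 0 intronic IDR peaks, and Dyrk2, NetA and Octalpha2R, just shorter, held 0, 3 and 0.

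Within hosts, members lay toward the 5' part. With each host cut into 5 equal parts from its 5' end, the densities were 34.3, 31.9, 24.8, 24.4 and 22.6 members per Mb, and in the replicates 35.8 ± 0.627 in the first part and 23.4 ± 1.16 in the last (SD, n = 3). The first intron held 158 of 649 members (24.3%) and 1129 of 4679 non-IDR intronic peaks of long hosts (24.1%), giving an odds ratio by two-sided Fisher's exact test of 1.012 (p = 0.922). The second intron held 258 members (39.8%) and 1501 of the non-IDR peaks (32.1%), a difference that was not tested. The median intron was 35.1 kb for members and 33.9 kb for non-IDR peaks, and 580 members (89.4%) and 4122 non-IDR peaks (88.1%) lay in introns over 10 kb.

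Members were nearer to start sites than the weaker intronic peaks of all long genes, which include genes without a member. They lay over 5 kb from every protein-coding TSS in 343 of 649 cases (52.9%, Wilson interval 49.0 to 56.7), while 3052 of 4679 weaker peaks did (65.2%, 63.9 to 66.6), giving an odds ratio by two-sided Fisher's exact test of 0.598 (p = 1.59e-09, BH p = 3.19e-09). The median distance of members was 5697 bp and the largest 76991 bp. The nearest TSS was the host's own for 459 members (70.7%) and that of another gene, nested or neighbouring, for 190. The summit lay inside more than 1 protein-coding gene for 35 members, and within 250 bp of the TSS of a non-coding gene for 5.

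Members had another IDR peak close by less often than intronic peaks of shorter hosts did. That other peak could be of any class, promoter peaks included. The median distance to a TSS was 5697 bp for members and 1868.5 bp for shorter-host peaks. Its part in the result was not tested. Another IDR summit lay within 2 kb of 288 of 649 members (44.4%, Wilson interval 40.6 to 48.2) and of 863 of 1648 shorter-host peaks (52.4%, 49.95 to 54.8), giving an odds ratio by two-sided Fisher's exact test of 0.726 (p = 6.02e-04, BH p = 9.03e-04). In hosts of 100 kb or longer the odds ratio was 0.760 (Fisher's exact p = 0.0673). Even so, 256 members fell in 103 runs of summits at most 2 kb apart, among them runs of 10 in Tlk, 6 in Smr and 5 each in CG1677, mam and sbb. The X chromosome held 178 members (27.4%) and 323 of the shorter-host peaks (19.6%). Per Mb of long-host sequence that was 36.7 on X, 38.6 on 2L, 28.5 on 2R, 26.5 on 3L and 16.2 on 3R. Of the 6.38 Mb on 3R, Myo81F and Pzl, which held no member, took up 1795 and 631 kb, which lowers its density. Long genes without pooled peaks also lie on other arms, such as DIP-lambda on 2R and lovit on 3L, at 348 and 403 kb.

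Words frequent in other strong CG5180 peaks were also more frequent at member summits than in their flanks. The 10 7-base words with the largest excess were taken from the 501 of the 540 strongest IDR peaks that are not members, and this comparison was added after the data were seen. Of those 501 peaks 43 lie inside long genes, at promoters or in exons. Ranked on the other 458 peaks, 9 of the 10 words were the same and all 10 passed as well. All 10, or 100%, passed in members against a window of the same width centred 500 bp away (exact McNemar test, two-sided, BH p from 9.76e-04 to 0.0344). Of these words 6 hold GTTCG on either strand and 4 hold AACAT, and since they overlap one another they are not 10 separate findings. AACATGT lay within 100 bp of the summit in 46 members (7.09%) and 17 flanks (2.62%), with 2.35% of 110652 tiles of the same width over the same intronic sequence. GTTCGAA lay in 28 member summits (4.31%), 6 flanks (0.924%) and 1.78% of tiles. GGTTCGA gave 22 summits (3.39%), 4 flanks (0.616%) and 1.13% of tiles. The weakest was ATGTTGC, with 47 summits (7.24%) and 28 flanks (4.31%). With 50 bp each side 3 words passed, and with flanks 1000 bp away 5 passed.

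The words were most frequent in the strongest members. At least 1 of the 10 was present at 25 of the 39 members in the strongest 540 IDR peaks (64.1%, Wilson interval 48.4 to 77.3) and in 3 of their flanks (7.69%, 2.65 to 20.3). In members ranked 2701 to 5400 it was present at 84 of 352 summits (23.9%) and 52 flanks (14.8%). Over all members the shares were 27.6% at summits and 14.9% in flanks, and 16.8% of tiles held one. Shorter-host intronic peaks among the strongest 540 had one at 32 of 88 summits (36.4%, 27.1 to 46.8), and those peaks had themselves helped to choose the words. The difference between host classes was not tested. These matches describe letters in a window and do not show that CG5180 binds them.

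**Figure D5:**
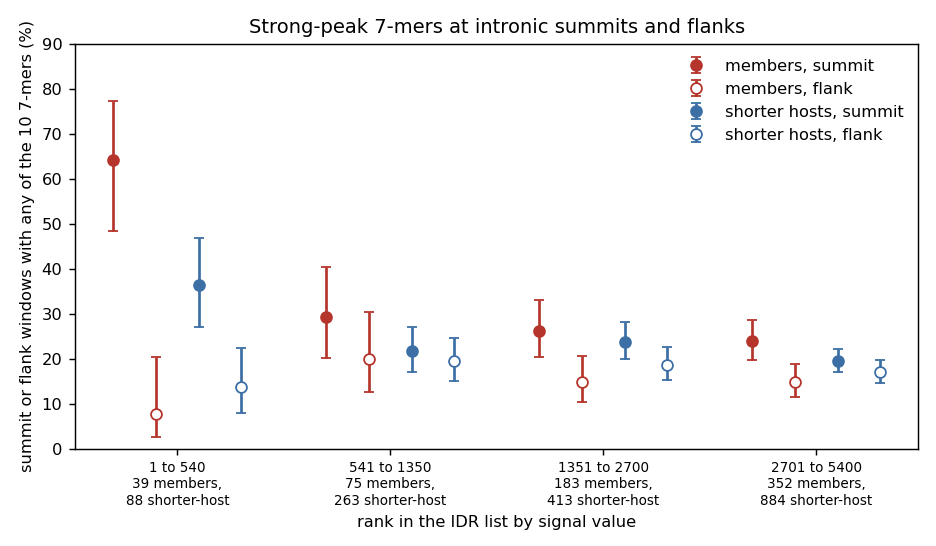
Share of windows with any of the 10 7-base words (y axis, percent) by rank in the IDR list (x axis, strongest at left). Filled points are windows at summits, open points windows 500 bp away, red members and blue shorter-host intronic peaks, with Wilson 95% intervals; the members in the strongest 540 peaks stand at 64.1% at the summit and 7.69% in the flank.

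Members were also searched by themselves. Of the 10 7-base words with the largest excess in odd-ranked members, 2 passed in the 324 even-ranked ones, or 20% (exact McNemar test, two-sided, BH over 10). CACAGTG lay at 17 even-ranked summits (5.25%) and 4 flanks (1.23%, exact BH p = 0.0235), and AAATGTT at 51 summits (15.7%) and 27 flanks (8.33%, BH p = 0.0395). CACAGTG was present at 6.93% of member summits and 7.28% of shorter-host intronic summits, beside 2.21% of tiles, and AAATGTT at 14.9% and 11.7%, beside 11.0% of tiles. These shares of all members take in the odd-ranked ones on which the words were chosen, which can raise them. Among the 8 that did not pass were 2 of the words from strong peaks, AACATGT at 18 summits and 11 flanks (exact BH p = 0.287) and ATGTTGC at 17 summits and 17 flanks (exact BH p = 1.00). With windows of 50 bp each side, with flanks 1000 bp away and without replicate 1 or 3 no word passed.

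Of 22 motifs of known factors 1, or 4.55%, differed between member summits and their flanks. It was the homeodomain core TAATTA, which was rarer, in 72 summits (11.1%) and 113 flanks (17.4%), with 14.2% of tiles (exact McNemar test, two-sided, BH p = 0.0387). It was not called with windows of 50 bp, with 1 peak a host, with the strongest of overlapping peaks or in hosts of 100 kb or longer, when no motif passed. The GAGA factor sequence GAGAGAG was found in 42 member summits (6.47%), 36 flanks (5.55%) and 2.81% of tiles (exact BH p = 0.786 for the flank comparison). The nuclear receptor half-site AGGTCA was found in 22 summits (3.39%) and 44 flanks (6.78%, exact BH p = 0.0589). Against shorter-host intronic peaks 0 of 22 motifs, or 0%, differed by Fisher's exact test, and none had an unadjusted p under 0.05. The lowest was the GATA sequence GATAAG, in 63 members (9.71%) and 208 shorter-host peaks (12.6%, exact p = 0.0526). GC content averaged 40.0% ± 8.55 (SD over 649 windows) at member summits and 39.9% ± 8.14 in their flanks.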

How the data were processed

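ChIP-seq peak lists of 3 biological replicates of CG5180-eGFP embryos were analysed. Per the README notes deposited, replicate lists derive from the alignments of 1 replicate and a further file of unstated kind, the pooled list from the alignments together, and the IDR list from these, on dm6. The signal value is a score that the authors' caller gave each peak, not scaled between lists, so it was used only to rank and describe peaks within a list. Read depth is unknown, and the sources used here give no aligner, caller or IDR threshold. Intervals and limits therefore cover counting error only, and a count of 0 allows up to 3 counts. The IDR list was exactly the strongest 5400 of the 30000 pooled peaks, and each replicate was cut to its own strongest 5400. The lists of dm3 were not used. No column of per-sample values was left out.

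Summits were placed on Ensembl release 115 gene models and the RefSeq sequence of genome release 6, and every peak lay within its arm. Spread is the SD over 3 replicates, which form 1 group, so no test compares conditions. No row was shared between replicate lists. Peaks and genes are not replicates of each other, and tests on them compare classes within 1 list. Shares were compared by Fisher's exact test, a summit with its own flank by the exact McNemar test, both two-sided, with Benjamini-Hochberg adjustment within families of 6 tests, 22 motifs or 10 words, at a threshold of 0.05. Windows reached 100 bp each side of a summit, and the flank lay 500 bp to a side drawn with a fixed seed. Of 877 symbols in 14 gene lists 838 were found, and 1 list is not reported here. Non-IDR peaks are pooled-list peaks that overlap no IDR peak. The scripts were tested on simulated data. Python 3.11.15, numpy 2.4.6, pandas 2.3.3, scipy 1.17.1 and matplotlib 3.10.9 were used.

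The members, lists, motifs and tests were chosen with earlier results of these data known. Named genes are the hosts of the 20 strongest members, the 20 hosts with the most members, up to 4 hosts a gene list with the most members, and CG5180, and others were named after their values were seen, including genes without members. Alternatives were other host lengths, TSS windows and sets, peak sets, distances, windows and flanks, and leaving out each replicate, which kept IDR peaks found among the strongest of both others. The 7-base words of strong peaks that are not members, their ranking on peaks in no long gene, repeat-free density, summits in 1 gene only and transposable elements not counted as exons were added after the data were seen, as was leaving out long genes inside longer ones.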

Additional observations from a re-analysis of the deposited data

How the results depend on the processing

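Of 129 values under other settings, 91 kept direction and side of the threshold or, with no test, stayed within the SD (density) or within 1.5 times (counts). Member counts ran from 476 to 498 without a replicate, beside 649. The shares of pooled peaks that were IDR peaks, of members over 5 kb from a TSS, and of long genes with a peak at an own TSS were among them under every setting run. With hosts of 100 kb or 30 kb, members numbered 205 and 1077, at 17.2 and 32.8 per Mb, and the stronger part of the IDR list held 297. Density was 25.5 per Mb with TSS windows of 1000 bp, 25.7 without transposable elements as exons, 35.9 over bases not marked as repeats, and 20.4 to 21.4 when a replicate was left out, which keeps fewer peaks by construction. The odds ratio for the strongest 10% of the IDR peaks in use was 2.29 in the stronger part, 1.75 with 1 peak a host, 0.990 with the strongest of overlapping peaks, and 1.46 to 1.60 without a replicate. The recovery difference was -1.36 percentage points with hosts of 30 kb, and -0.532 to 2.11 without a replicate. The odds ratio for another summit within 2 kb was 0.760 with 100 kb. For the first intron it was 1.45 with 100 kb (Fisher's exact p = 0.0433), 1.21 with 30 kb (p = 0.00690) and 0.916 in the stronger part.

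Motifs called against the flank numbered 0 with 100 kb, 3 with 30 kb, 2 in the stronger part, 0 with the strongest of overlapping peaks, 0 with 1 peak a host, 0 with 50 bp windows, and 2 to 3 without a replicate. Words called on even-ranked members numbered 0 with 50 bp windows, 0 with flanks 1000 bp away and 0 to 1 without a replicate. Words of strong peaks that are not members numbered 3 with 50 bp windows, 5 with flanks 1000 bp away, 5 with 100 kb and 7 to 9 without a replicate. The causes were not tested. No paired analysis was possible because the samples form 1 group, so no replicate numbers are shared between groups; only the recovery difference is taken within each replicate. Unknown read depth and the lack of another GFP line here limit what absence of a peak shows.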
